A study of Mus musculus with 10 samples.

Results

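The 10 genes described here encode enzymes of the late, sterol part of cholesterol synthesis, from squalene to cholesterol. They are Sqle, Lss, Cyp51, Tm7sf2, Msmo1, Nsdhl, Hsd17b7, Ebp, Sc5d and Dhcr7, chosen by name as the genes of this stretch to which the platform annotation assigns a probe set of their own. All 10 were measured, by 14 probe sets, among the 8251 genes of Affymetrix MG_U74Av2 arrays, which read each transcript with sets of short oligonucleotides. Where a gene had several probe sets, the one with the highest mean over the 10 arrays was used and the others served as a check.

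The livers came from male mice in 5 groups. TgSREBP-1a and TgSREBP-2 mice overexpressed the nuclear, active part of human SREBP-1a (the first line) or of human SREBP-2 (the second), and were compared with wild type littermates. These groups were 12 to 16 weeks old and were fed for 2 weeks on a diet high in protein and low in carbohydrate, which raises transgene expression; as background on these lines, the transgenes are driven by a promoter of the gluconeogenic gene Pck1, so their expression depends on the diet. Scap-/- mice carried MX1-Cre, which recombines also outside hepatocytes, and were compared with wild type mice. Both of these groups were 10 to 12 weeks old, ate Teklad chow, received 4 injections of polyinosinic-polycytidylic acid, an inducer of Cre, with livers taken 14 days after the final injection. RNA of 5 mice per group was combined into 1 pool, with 2 arrays run per pool. The p-values therefore compare pools of RNA over the spread of repeat hybridisations and hold no error between mice.

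SREBPs are transcription factors of lipid synthesis that are made as precursors in the membrane of the endoplasmic reticulum. SCAP escorts them to the Golgi, where proteases release the nuclear form, and sterols hold SCAP back, so cells short of cholesterol switch on the genes of its synthesis. In liver this pathway supplies cholesterol for lipoproteins, membranes and bile acids. Squalene is first oxidised by Sqle and cyclised by Lss to lanosterol, the first sterol. Cyp51 removes the methyl group at carbon 14 and Tm7sf2 reduces the double bond this leaves. Msmo1, Nsdhl and Hsd17b7 take turns to remove the methyl groups at carbon 4. Ebp shifts a ring double bond, Sc5d adds another, and Dhcr7 reduces 7-dehydrocholesterol to cholesterol.

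The promoters of 9 of the 10 genes were matched by symbol in RefSeq (GRCm38.p6, 250 bases before to 50 after each gene's start), with 11 promoters because Dhcr7 has 3. Sqle is not in the table used. Below, 4 are shown, chosen by the results that follow. Msmo1 and Hsd17b7 differed most between the transgenic pools, Lss missed the threshold there, and Cyp51 followed the mean of the other 9 genes most closely over the arrays. Each is written 5′ to 3′ on the strand of the gene. Capitals mark CCAAT, the box bound by NF-Y, on either strand (ATTGG where it lies on the other strand), and CACGTG, an E-box. Lss lies on the + strand at chr10:76531355-76531654, Cyp51 on the - strand at chr5:4104648-4104947, Msmo1 on the - strand at chr8:64733529-64733828 and Hsd17b7 on the - strand at chr1:169969156-169969455.
Lss: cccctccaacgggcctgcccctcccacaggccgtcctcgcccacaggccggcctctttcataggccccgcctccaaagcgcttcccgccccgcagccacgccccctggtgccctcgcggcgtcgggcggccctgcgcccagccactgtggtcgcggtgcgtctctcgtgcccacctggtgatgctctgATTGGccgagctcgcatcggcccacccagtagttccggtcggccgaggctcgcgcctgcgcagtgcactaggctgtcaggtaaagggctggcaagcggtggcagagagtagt
Cyp51: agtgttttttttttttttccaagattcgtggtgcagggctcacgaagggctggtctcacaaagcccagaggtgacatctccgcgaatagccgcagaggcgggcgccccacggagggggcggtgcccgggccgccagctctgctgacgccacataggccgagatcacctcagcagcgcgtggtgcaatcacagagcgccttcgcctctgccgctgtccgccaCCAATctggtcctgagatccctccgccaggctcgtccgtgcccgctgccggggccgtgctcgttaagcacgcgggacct
Msmo1: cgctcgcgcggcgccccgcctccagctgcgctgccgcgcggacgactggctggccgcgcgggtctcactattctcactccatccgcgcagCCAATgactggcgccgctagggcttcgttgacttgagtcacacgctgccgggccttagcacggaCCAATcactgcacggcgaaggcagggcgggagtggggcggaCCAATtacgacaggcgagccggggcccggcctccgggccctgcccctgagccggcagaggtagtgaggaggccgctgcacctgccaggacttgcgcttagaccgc
Hsd17b7: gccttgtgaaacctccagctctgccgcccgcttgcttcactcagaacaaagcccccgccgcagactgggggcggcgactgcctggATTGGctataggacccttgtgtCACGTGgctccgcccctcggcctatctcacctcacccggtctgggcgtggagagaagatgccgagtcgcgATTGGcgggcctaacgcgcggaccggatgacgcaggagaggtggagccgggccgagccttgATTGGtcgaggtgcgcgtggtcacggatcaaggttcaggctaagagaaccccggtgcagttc

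Motifs were searched as exact letters on both strands. CCAAT stood in a promoter of 9 of 9 genes (9 of 11 promoters), against 37.4% of all 32851 promoters of the table. Msmo1 held 3 copies, at -160, -96 and -55 from the start, and Hsd17b7 held 3 on the other strand, at -165, -73 and -12. Cyp51 held 1 copy at -29 and Lss 1 on the other strand at -62. Of the promoters not shown, Nsdhl held copies at -109, -20 and 8 on the other strand and at 34. Ebp held them at -170 and -55, Tm7sf2 at -47 and Sc5d at -24, all on the other strand. A promoter of Dhcr7 held them at -85 and, on the other strand, at -49. A link between copies and differences between pools was not tested. GGGCGG, the GC box bound by Sp1, stood in a promoter of 9 of 9 genes (10 of 11 promoters), against 35.7% of all promoters. The member promoters had a median GC content of 64%, against 52.7% in the table. CACGTG, which reads the same on both strands and was counted once per site, stood in promoters of 3 genes, Hsd17b7 at -143, Sc5d at -98 and Dhcr7 at -164, against 7.15% of all promoters. TCACCCCAC, taken from the sterol regulatory element of the LDL receptor gene, was in none of the 11 promoters and in 0.551% of all. TCACNCCAC, which allows any base after TCAC and so includes the former motif, was also in none of the 11 and in 1.24% of all. These counts say which letters lie in these windows and nothing of factor binding.

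The deposited log2 signals had medians of 6.37 to 6.40 per array, and duplicates correlated at 0.9921 to 0.9978 over genes. The duplicates lay 1.5-fold or more apart for 151 genes (TgSREBP-1a), 55 (TgSREBP-2), 101 (high-protein wild type), 6 (Scap-/-) and 0 (chow-fed wild type). Array 1 was the higher duplicate for 9, 9, 8, 2 and 3 of the 10 sterol genes, in the same order of pools. Scap and Srebf2 were not analysed here, so the deletion was not checked at its own transcript. The summed linear signal of 10 hepatocyte markers lay between 60000 and 66290 on all arrays, although single markers moved both ways in TgSREBP-1a. There Ttr, transthyretin, fell by 1.37 and Tat, a tyrosine aminotransferase, rose by 0.77, and 8 of the 10 had an unadjusted p under 0.05, against 1 in TgSREBP-2 and 4 in Scap-/-, where limma called 0. That of 7 of 11 exocrine pancreas markers with a probe set was 1307 to 1350 in TgSREBP-1a and 21690 to 22090 in TgSREBP-2, against 16160 to 16250 in their wild type pool. It was 1803 to 1874 in Scap-/-, against 7999 to 8200 in wild type on chow. Prss2, a trypsinogen, led this fall at -5.56 in TgSREBP-1a and -4.21 in Scap-/- on the log2 scale. For 10 of 11 macrophage markers the sum was 4440 to 4664 in TgSREBP-1a and 3565 to 3834 in TgSREBP-2, against 2760 to 2767 in wild type. It was 3932 to 3996 in Scap-/-, against 4032 to 4294 in wild type on chow. Limma called 0 of 7 stellate cell, 3 cholangiocyte and 7 lymphocyte markers in the 3 comparisons with wild type. An unadjusted p under 0.05 was seen for 6, 0 and 2 of them (TgSREBP-1a), for 2, 1 and 1 (TgSREBP-2) and for 4, 0 and 0 (Scap-/-), where 2445, 1410 and 807 of all 8251 genes had one. Of 7 endothelial markers it called 2 in TgSREBP-1a and 0 in the others, where 1 (TgSREBP-2) and 0 (Scap-/-) had such a p. The 2 in TgSREBP-1a were higher, where 4.78% of all genes were called higher. The part of these markers in the results below was not tested. In bulk RNA, fewer cells of a type and less RNA per cell cannot be told apart.

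In livers with an added nuclear human SREBP every one of the 10 enzymes was higher than in wild type. In Scap-/- livers all 10 read lower, and 8 passed the threshold given below. In TgSREBP-1a all 10 rose, where 4.78% of all 8251 genes did. The median log2 difference was 1.89 for the 10 genes and -0.03 for all genes tested. In TgSREBP-2 all 10 rose, where 2.18% of all genes did, with a median of 2.76 against -0.02. In Scap-/- 8 of 10 fell, where 0.921% of all genes did, with a median of -1.67 against 0.00. A gene is said here to rise or fall at a limma adjusted p under 0.05 (Benjamini-Hochberg over all 8251 genes) with at least a 1.5-fold difference, and errors after ± are moderated standard errors with n = 2 arrays per group. Higher in both transgenic pools and lower in Scap-/- were 8 of the 10, all but Ebp and Sc5d, and 30 genes or 0.364% of the whole array. The transgenic comparisons share their wild type arrays, so their results are not independent.

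**Figure D1:**
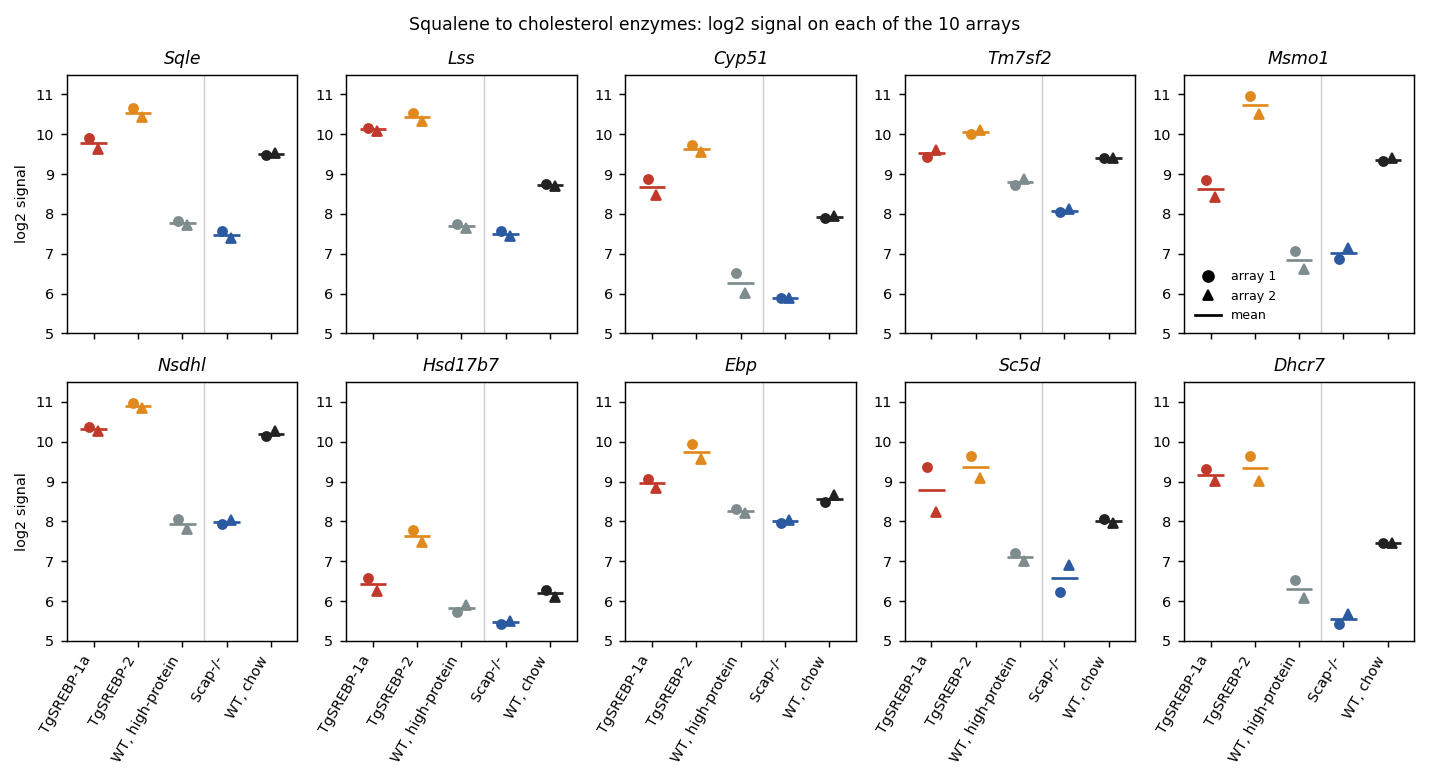
Each panel shows one gene, with the log2 signal of both arrays of each pool (circle, array 1; triangle, array 2) and their mean as a line; the grey vertical line separates the high-protein set from the chow set. TgSREBP-2 has the highest mean in all 10 panels, and the TgSREBP-1a arrays of Msmo1 lie below those of wild type on chow.

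Sqle, squalene epoxidase, is a rate-limiting step of the pathway after HMG-CoA reductase. Its log2 signal was 9.91 and 9.63 on the TgSREBP-1a arrays and 10.66 and 10.43 on the TgSREBP-2 arrays, against 7.83 and 7.73 in their wild type pool. In the chow set it was 7.57 and 7.39 in Scap-/-, against 9.48 and 9.53 in wild type. The groups did not overlap in any of these comparisons. Sqle was thus 3.98-fold higher in TgSREBP-1a (1.99 ± 0.12, limma adjusted p = 1.16e-06) and 6.81-fold higher in TgSREBP-2 (2.77 ± 0.12, adjusted p = 4.19e-07). It was 4.06-fold lower in Scap-/- (-2.02 ± 0.12, adjusted p = 3.89e-06).

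Lss, lanosterol synthase, makes the first sterol ring system. It stood at 10.15 and 10.09 in TgSREBP-1a and 10.55 and 10.33 in TgSREBP-2, against 7.74 and 7.64 in their wild type pool. Scap-/- arrays read 7.58 and 7.44, against 8.74 and 8.71 in wild type on chow. The transgenic arrays of Lss lay close together, far above both wild type pools. It rose 5.40-fold in TgSREBP-1a (2.43 ± 0.09) and 6.74-fold in TgSREBP-2 (2.75 ± 0.09), and fell by 1.21 ± 0.09 in Scap-/-, 2.32-fold.

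Cyp51, the lanosterol demethylase, is the one cytochrome P450 among the 10. Its signal was 8.89 and 8.46 in TgSREBP-1a and 9.73 and 9.55 in TgSREBP-2, against 6.52 and 6.02 in their wild type pool. It was 5.89 and 5.90 in Scap-/-, against 7.91 and 7.94 in wild type on chow. All groups were apart, although the wild type duplicates on the high-protein diet differed by 0.50. Cyp51 rose 5.30-fold in TgSREBP-1a (2.41 ± 0.17) and 10.3-fold in TgSREBP-2 (3.37 ± 0.17), and was 4.08-fold lower in Scap-/- (-2.03 ± 0.17).

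Tm7sf2, a sterol reductase that acts on the product of Cyp51, had the smallest rise of the 10 in TgSREBP-2. It stood at 9.44 and 9.61 in TgSREBP-1a and 10.00 and 10.11 in TgSREBP-2, against 8.73 and 8.88 in their wild type pool. It was 8.06 and 8.11 in Scap-/-, against 9.40 and 9.41 in wild type on chow. Its rise was 1.65-fold in TgSREBP-1a (0.72 ± 0.09, limma adjusted p = 0.000289) and 2.39-fold in TgSREBP-2 (1.25 ± 0.09). In Scap-/- its level fell by 1.32 ± 0.09 on the log2 scale. For the probe set used, the sizes of the Scap-/- and TgSREBP-2 differences lay within 1 standard error of each other. With the second probe set they did not (-0.63 ± 0.10 in Scap-/- and 0.97 ± 0.10 in TgSREBP-2).

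The enzymes that strip carbon 4 differed widely among themselves. Msmo1, the methyl sterol oxidase, read 8.84 and 8.42 in TgSREBP-1a and 10.96 and 10.51 in TgSREBP-2, against 7.06 and 6.62 in their wild type pool. It read 6.86 and 7.15 in Scap-/-, against 9.32 and 9.40 in wild type on chow. TgSREBP-2 arrays were the highest by a wide margin, and the TgSREBP-1a arrays lay between the wild type pools. Msmo1 rose 3.46-fold in TgSREBP-1a (1.79 ± 0.19) and 14.9-fold in TgSREBP-2 (3.90 ± 0.19, limma adjusted p = 1.05e-06), the third largest rise of all 8251 genes. In Scap-/- it was 5.11-fold lower (-2.35 ± 0.19), the sixth largest fall.

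Nsdhl, the dehydrogenase that removes the oxidised carbon, read 10.37 and 10.26 in TgSREBP-1a and 10.97 and 10.83 in TgSREBP-2, against 8.07 and 7.81 in their wild type pool. It read 7.92 and 8.03 in Scap-/-, against 10.13 and 10.26 in wild type on chow. Its TgSREBP-1a arrays stood at about the height of chow-fed wild type, and its Scap-/- arrays at that of wild type on high protein. Nsdhl rose 5.18-fold in TgSREBP-1a (2.37 ± 0.11) and 7.80-fold in TgSREBP-2 (2.96 ± 0.11), and was 4.66-fold lower in Scap-/- (-2.22 ± 0.11).

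Hsd17b7, which reduces the ketone that Nsdhl leaves, had the smallest difference of the 10 in TgSREBP-1a. Its signal was 6.58 and 6.25 in TgSREBP-1a and 7.77 and 7.49 in TgSREBP-2, against 5.73 and 5.90 in their wild type pool. It was 5.43 and 5.50 in Scap-/-, against 6.28 and 6.10 in wild type on chow. It rose 1.52-fold in TgSREBP-1a (0.60 ± 0.13, limma adjusted p = 0.0104) and 3.53-fold in TgSREBP-2 (1.82 ± 0.13), and was 1.65-fold lower in Scap-/- (-0.72 ± 0.13, adjusted p = 0.0136). The rise in TgSREBP-1a lost its call without replicate 1 of TgSREBP-1a (0.44, limma adjusted p = 0.0745) or of wild type (0.52, adjusted p = 0.0709). The fall in Scap-/- lost its call without any 1 of its 4 arrays, with limma adjusted p = 0.13 and 0.0822 without replicates 1 and 2 of Scap-/- and 0.177 and 0.0647 without those of wild type.

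Ebp, the isomerase that binds the drug emopamil, changed by small steps. It read 9.06 and 8.85 in TgSREBP-1a and 9.94 and 9.55 in TgSREBP-2, against 8.31 and 8.21 in their wild type pool. It read 7.95 and 8.04 in Scap-/-, against 8.47 and 8.67 in wild type on chow. It rose 1.61-fold in TgSREBP-1a (0.69 ± 0.13, limma adjusted p = 0.00446) and 2.80-fold in TgSREBP-2 (1.48 ± 0.13). In Scap-/- its log2 difference was -0.57 ± 0.13 (limma adjusted p = 0.0463), a 1.49-fold difference just short of the fold threshold.

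Sc5d, the C5 desaturase, had the widest gaps between duplicates. Its signal was 9.36 and 8.23 in TgSREBP-1a and 9.65 and 9.08 in TgSREBP-2, against 7.22 and 7.003 in their wild type pool. It was 6.23 and 6.91 in Scap-/-, against 8.05 and 7.96 in wild type on chow. The TgSREBP-1a duplicates were 1.13 apart, and every transgenic array was still above every wild type array of its set. Sc5d rose 3.22-fold in TgSREBP-1a (1.69 ± 0.33, limma adjusted p = 0.00564) and 4.77-fold in TgSREBP-2 (2.26 ± 0.33). The TgSREBP-1a difference was 1.12 without its replicate 1 and 2.25 without its replicate 2. In Scap-/- its difference of -1.43 ± 0.33 missed the threshold (limma adjusted p = 0.0517). It passed at 0.000694 with the replicate number as a block, at 1.64e-05 with only Scap-/- and its wild type in the fit. It also passed with both its probe sets averaged (0.0206), with arrays quantile normalized again (0.0336) and with a trended, robust variance (0.0487). It missed with dim genes left out (limma adjusted p = 0.0553) and without any 1 of the 4 arrays, where the difference was -1.78 to -1.09 and the adjusted p 0.0677 to 0.437.

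Dhcr7, the last enzyme, showed the largest rise of the 10 in TgSREBP-1a. It read 9.32 and 9.01 in TgSREBP-1a and 9.64 and 9.02 in TgSREBP-2, against 6.53 and 6.09 in their wild type pool. It read 5.43 and 5.68 in Scap-/-, against 7.46 and 7.46 in wild type on chow. Arrays of the transgenic pools interleaved, while both stood above wild type by over 2 log2 units. Dhcr7 rose 7.23-fold in TgSREBP-1a (2.85 ± 0.20, limma adjusted p = 4.53e-06) and 8.14-fold in TgSREBP-2 (3.03 ± 0.20), and was 3.75-fold lower in Scap-/- (-1.91 ± 0.20).

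**Figure D2:**
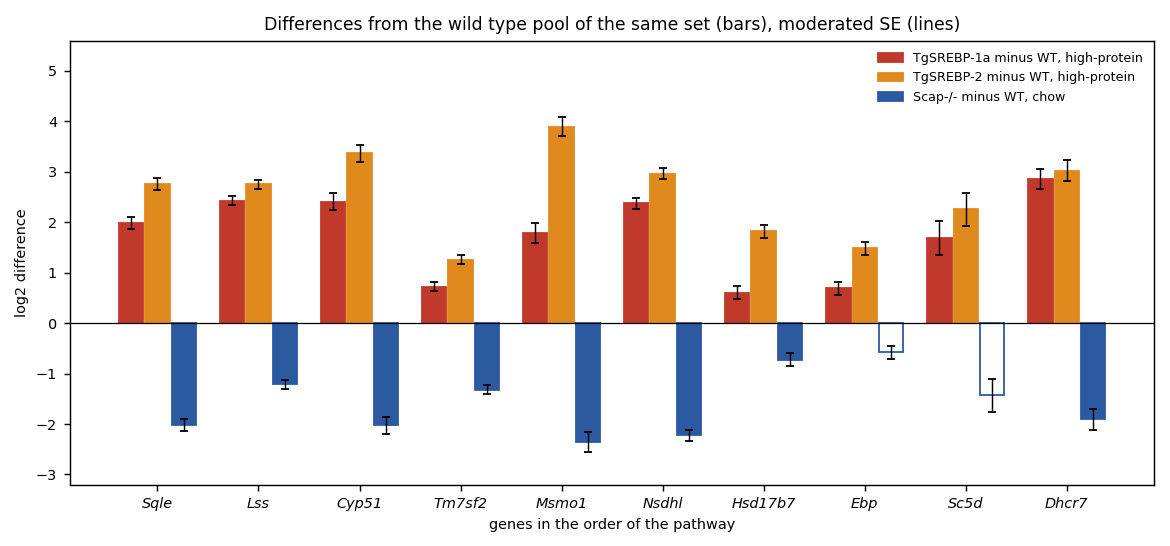
Bars show log2 differences of the 10 genes, in pathway order, for TgSREBP-1a and TgSREBP-2 against wild type on high protein and for Scap-/- against wild type on chow; lines are moderated standard errors and white bars miss the threshold. All TgSREBP bars are positive and all Scap-/- bars negative, with Msmo1 in TgSREBP-2 at 3.90 the tallest and Ebp and Sc5d in Scap-/- white.

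By rank among all 8251 genes the 10 enzymes stood high in TgSREBP-2. From Msmo1 in place 3, Cyp51, Dhcr7, Nsdhl, Sqle and Lss followed in places 5, 7, 8, 10 and 11 of the rises. Sc5d held place 13, Hsd17b7 24, Ebp 33 and Tm7sf2 46. In TgSREBP-1a they were more spread out. Dhcr7 led in place 13, Lss, Cyp51 and Nsdhl held 22 to 24, Sqle 43, Msmo1 53 and Sc5d 62, while Tm7sf2, Ebp and Hsd17b7 came at 278, 303 and 387. In Scap-/- the falls of Msmo1, Nsdhl, Cyp51, Sqle and Dhcr7 ranked 6, 9, 14, 15 and 16, and Ebp was lowest at 89. Tm7sf2, Hsd17b7 and Ebp had the 3 smallest differences of the 10 in both transgenic pools. After subtraction of the wild type mean of its set, each gene correlated with the mean of the other 9 at Pearson r = 0.945 (Hsd17b7) to 0.999 (Cyp51) over 10 arrays, a description of arrays that share wild type pools.

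A direct comparison of both transgenic pools asks whether the isoforms differed for these enzymes. All 10 differences had the sign of a lower level in TgSREBP-1a, and 6 of 10 passed the threshold, where 2.95% of all genes were lower. For 8 of the 10, all but Sc5d and Dhcr7, both TgSREBP-1a arrays lay below both TgSREBP-2 arrays, as for 22.4% of all genes. The median was -0.68 for the 10 genes and 0.00 for all genes. Msmo1 was 4.30-fold lower in TgSREBP-1a (-2.10 ± 0.19, limma adjusted p = 4.05e-05), Hsd17b7 2.33-fold lower (-1.22 ± 0.13) and Cyp51 1.95-fold lower (-0.97 ± 0.17). Ebp and Sqle were lower by 1.73-fold and 1.71-fold (-0.79 ± 0.13 and -0.78 ± 0.12). Nsdhl passed narrowly at -0.59 ± 0.11, or 1.51-fold. Its call was lost by fold without replicate 2 of TgSREBP-1a (-0.53) or replicate 1 of TgSREBP-2 (-0.52), with all its probe sets averaged (-0.58) and with arrays quantile normalized again (-0.44).

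The other 4 genes missed the threshold between the transgenic pools, which does not show that their levels were alike. Tm7sf2 differed by -0.53 (95% interval -0.73 to -0.33, limma adjusted p = 0.00317), short of 1.5-fold, and passed without replicate 2 of TgSREBP-1a (-0.62) or replicate 1 of TgSREBP-2 (-0.59). Lss differed by -0.32 (-0.53 to -0.11, limma adjusted p = 0.056). For Sc5d the interval was wide, -1.31 to 0.17 around -0.57, and 1 array decided it. Without replicate 1 of TgSREBP-1a the difference was -1.13 (limma adjusted p = 0.0267), and without replicate 2 of TgSREBP-1a it was -0.0042 (adjusted p = 0.995). Dhcr7 differed by -0.17 (-0.62 to 0.28), and the sign turned to 0.14 without replicate 1 of TgSREBP-2. The amounts of nuclear SREBP protein in the lines were not analysed here, so the isoform and the dose of transgene cannot be told apart.

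**Figure D3:**
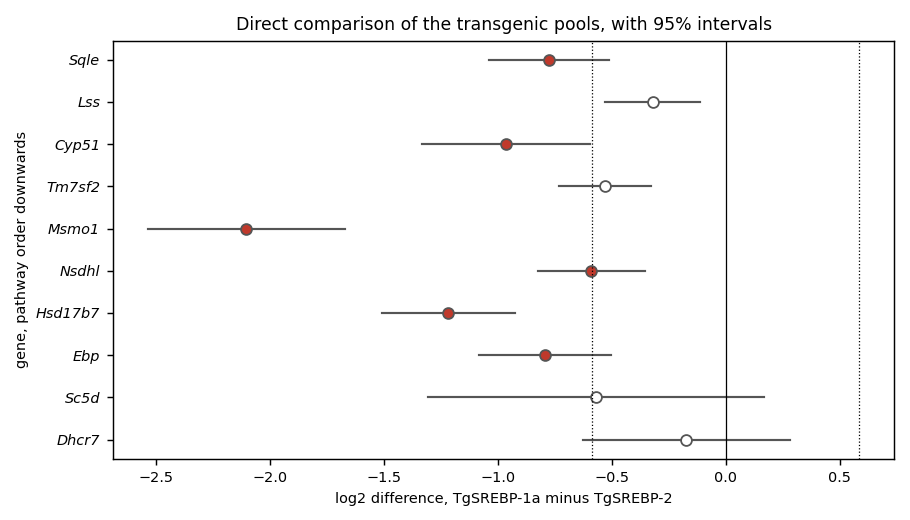
Points are log2 differences, TgSREBP-1a minus TgSREBP-2, with 95% intervals from limma; filled points pass the threshold and dotted lines mark 1.5-fold. All points lie left of 0, Msmo1 farthest at -2.10, and the intervals of Sc5d and Dhcr7 include 0.

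The wild type pools also differed. In the pool on the high-protein diet all 10 genes read lower than in the chow-fed pool, and 7 passed the threshold, where 4.34% of all genes were lower. The median was -1.09 for the 10 genes and 0.01 for all genes. Msmo1 was 5.74-fold lower (-2.52 ± 0.19, limma adjusted p = 2.07e-05), Nsdhl 4.79-fold lower (-2.26 ± 0.11) and Sqle 3.31-fold lower (-1.73 ± 0.12). Cyp51, Dhcr7, Lss and Tm7sf2 fell by 1.65, 1.15, 1.03 and 0.60. Tm7sf2 lost its call by fold without replicate 1 of wild type on high protein (-0.53) and with arrays quantile normalized again (-0.49). Sc5d, Hsd17b7 and Ebp missed the threshold at -0.90 ± 0.33, -0.38 ± 0.13 and -0.31 ± 0.13 (limma adjusted p = 0.0779, 0.0658 and 0.114), and Sc5d ranged over its alternatives between an adjusted p of 0.000439 (only these pools in the fit) and 0.236 (1 array left out), with 0.00388 with the replicate number as a block. Diet, age, injections and the experiment each pool belonged to (transgenic or Scap-/-) cannot be told apart in this comparison.

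For 3 of the 10 genes other probe sets gave a check. The second probe set of Tm7sf2 gave 0.66 (TgSREBP-1a), 0.97 (TgSREBP-2) and -0.63 (Scap-/-), where the probe set used gave -1.32. Nsdhl has 3 probe sets. The plain probe sets gave 3.005 and 0.95 (TgSREBP-1a), 3.68 and 1.43 (TgSREBP-2) and -2.52 and -1.25 (Scap-/-), and the values of the probe set used lie between them. All these differences passed the threshold in limma, and all had the sign of the probe set used. Between the transgenic pools neither plain probe set of Nsdhl passed (-0.68 ± 0.21 and -0.48 ± 0.12). The second probe set of Sc5d had a smaller error than the first. It rose by 1.93 ± 0.25 (TgSREBP-1a) and 2.31 ± 0.25 (TgSREBP-2) and fell by 1.48 ± 0.25 in Scap-/- (limma adjusted p = 0.00814), where the one used had just missed. The probe sets used for Nsdhl and Sc5d, and the second of Sc5d, carry Affymetrix suffixes for probes chosen under relaxed rules of uniqueness. So do those of Mvk, Cyp7b1 and Prss2, which are named elsewhere in this text. Signal from related transcripts was not tested.

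**Figure D4:**
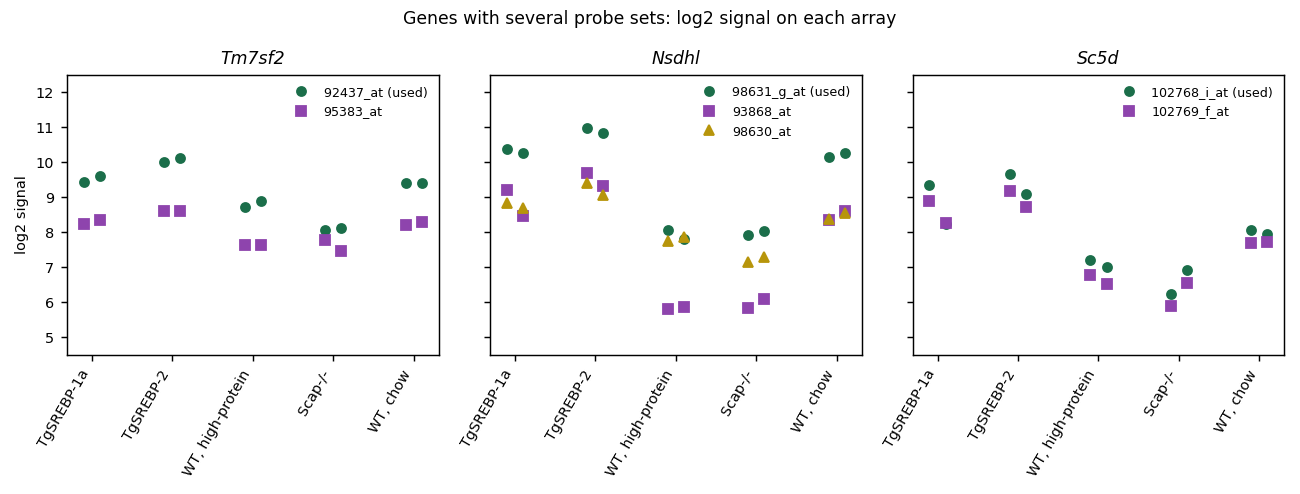
Log2 signals of all probe sets of Tm7sf2, Nsdhl and Sc5d on each array, array 1 left of array 2 in each pool. In every panel each probe set has its highest mean in TgSREBP-2, while the spans differ, widest for 1 of the plain probe sets of Nsdhl (3.68 in TgSREBP-2).

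Of 7 other genes of the same stretch of the pathway 4 were measured, and the others were not analysed here. Erg28, which holds the carbon 4 enzymes together, read 8.11 and 8.10 in TgSREBP-1a and 9.53 and 9.38 in TgSREBP-2, against 7.51 and 7.75 in their wild type pool. It rose 3.54-fold in TgSREBP-2 (1.82 ± 0.10, limma adjusted p = 1.63e-06), stood at 0.48 ± 0.10 in TgSREBP-1a, short of 1.5-fold, and fell by 0.66 ± 0.10 in Scap-/-. Between the transgenic pools Erg28 was 2.54-fold lower in TgSREBP-1a (-1.35 ± 0.10). All 4 genes measured here had this sign there, as did all 10 enzymes. Lbr, a nuclear envelope protein with the same reductase activity as Tm7sf2, rose by 0.62 ± 0.12 (TgSREBP-1a) and 1.46 ± 0.12 (TgSREBP-2) and stood at -0.33 ± 0.12 in Scap-/-. Pgrmc1, a haem protein that binds P450 enzymes, rose in TgSREBP-2 by 0.59 ± 0.11, and Cyb5a, an electron carrier, passed in none of the 3 comparisons with wild type (-0.26 ± 0.12, 0.17 ± 0.12 and 0.18 ± 0.12 in TgSREBP-1a, TgSREBP-2 and Scap-/-). In all, 1 of these 4 rose in TgSREBP-1a, 3 rose in TgSREBP-2 and 1 fell in Scap-/-, where 4.78%, 2.18% and 0.921% of all genes did.

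The earlier steps run from acetyl-CoA to squalene. Of 10 listed genes 7 were measured, of which 5 rose in TgSREBP-1a, 6 rose in TgSREBP-2 and 5 fell in Scap-/-. Of all genes 4.78%, 2.18% and 0.921% did so. Their medians were 2.23, 2.92 and -1.72. Fdft1, squalene synthase, makes the substrate of Sqle and rose by 2.23 ± 0.14 (TgSREBP-1a) and 3.18 ± 0.14 (TgSREBP-2) and fell by 1.72 ± 0.14 in Scap-/-. Idi1, the isomerase of isopentenyl diphosphate, had the largest rise in TgSREBP-2 and the largest fall in Scap-/- of the 7, with 2.66 (TgSREBP-1a), 4.31 (TgSREBP-2) and -2.57 (Scap-/-). Hmgcs1, HMG-CoA synthase, stood at 3.16, 3.84 and -2.15 and Fdps, farnesyl diphosphate synthase, at 3.11, 2.92 and -2.50, in the same order of pools. Mvk, mevalonate kinase, did not pass in TgSREBP-1a (0.14 ± 0.10) and rose by 1.49 ± 0.10 in TgSREBP-2. Ggps1, which leads to the side branch of geranylgeranyl diphosphate, passed in none of the 3 comparisons (-0.13, -0.16 and 0.02). Between the transgenic pools 3 of the 7 were lower in TgSREBP-1a, where 2.95% of all genes were. The median of the 7 was -0.68, and Fdps stood at 0.19 ± 0.08 with the other sign.

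Genes that sense, take up or use sterols did not move as one group. Of 12 sensing and uptake genes 5 were measured, and Srebf1 and Npc2 rose in both transgenic pools (Srebf1 by 1.86 ± 0.07 and 1.34 ± 0.07, Npc2, a lysosomal cholesterol carrier, by 1.74 ± 0.11 and 0.93 ± 0.11 in TgSREBP-1a and TgSREBP-2). In Scap-/- only Srebf1 of the 5 fell (-1.51 ± 0.07). Insig1, which retains SCAP in the endoplasmic reticulum, stood at -0.11 ± 0.12 (TgSREBP-1a), -0.19 ± 0.12 (TgSREBP-2) and 0.09 ± 0.12 (Scap-/-). Its signal was only 4.19 to 4.71 over the arrays, well below the array medians of 6.37 to 6.40. A change in its level could therefore have been missed. Lbr also lay below these medians, at 4.53 to 6.17 over the arrays. So did Hsd17b7 in Scap-/- and both wild type pools (5.43 to 6.28), and Cyp51 and Dhcr7 in Scap-/- (5.43 to 5.90). Whether low signal made their differences smaller was not tested. Of 10 genes of sterol use 5 were measured, and Cyp7b1 and Cyp8b1, hydroxylases of bile acid synthesis, fell in TgSREBP-1a (-4.36 ± 0.11 and -0.86 ± 0.09). Limma called 0 of these 5 in TgSREBP-2 and in Scap-/-, where 1 and 0 had an unadjusted p under 0.05.

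The genes whose profile over the 10 arrays was most like the mean of the 10 enzymes were sought among 489 other genes with a range of at least 1 log2 unit between group means, after subtraction of the wild type mean of each set. The 5 closest were Fdft1 (Pearson r = 0.997), Idi1 (0.997), Tff3 (0.996), Hmgcs1 (0.995) and Mvd (0.988). Of these, 4 are enzymes from acetyl-CoA to squalene. Tff3, a trefoil peptide secreted by mucosal epithelia, is not of the pathway. Its log2 signal was 9.87 and 9.93 in TgSREBP-1a and 10.23 and 10.09 in TgSREBP-2, against 9.05 and 9.07 in their wild type pool, and 8.03 and 8.06 in Scap-/-, against 8.75 and 8.81 in wild type on chow. Its differences of 0.84, 1.11 and -0.73 have the signs of the enzymes at a smaller size.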

How the data were processed

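The authors deposited 1 table of log2 signals for 12488 probe sets on 10 arrays, made with RMA per the submitters' processing notes; the series' design text names Microarray Suite 5.0 instead, which gives linear signals. Values ran from 2.68 to 14.03 with near-equal medians, so they were used as log2 signals already normalized between arrays. The number of arrays limits the precision. Probe sets with 1 gene symbol (10833, of which 10817 were matched to RefSeq by gene ID) were kept, the brightest per gene. Left out were 66 control probe sets, 396 with several symbols and 1193 without one.

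A linear model per gene over all 10 arrays (limma 3.58.1, lmFit then eBayes, R 4.3.3) held a mean for each of the 5 groups and no block, which left 5 residual degrees of freedom. This shares 1 variance per gene although duplicates varied more on the high-protein diet. The fit was tested on simulated data. Named genes are the 10 enzymes, up to 4 per related list by size of difference, and the 5 most alike. Mvk, Ggps1, Insig1, Prss2, Ttr and Tat were named after their values were seen. Members and lists were chosen with earlier results of these data known. Alternatives were the samples fitted, a replicate block, each array left out, averaged probe sets, a filter on signals under 6, quantile normalization and the variance model. Detection calls were not used here.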

Additional observations from a re-analysis of the deposited data

Results flagged for a closer look

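Effects against the same wild type pool differed between TgSREBP-1a and TgSREBP-2 for 6 of the 10 enzymes, by limma's direct test of the 2 pools (adjusted p under 0.05 and at least 1.5-fold). They were Msmo1 (-2.10), Hsd17b7 (-1.22), Cyp51 (-0.97), Ebp (-0.79), Sqle (-0.78) and Nsdhl (-0.59), all log2 differences of TgSREBP-1a minus TgSREBP-2. Nsdhl passed narrowly and lost its call in some alternatives, and neither of its other probe sets passed. In each of these 6 genes both TgSREBP-1a arrays lay below both TgSREBP-2 arrays, as they did for 22.4% of all genes. The 6 were called on these same arrays, so this adds no support to the calls.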

How the results depend on the processing

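Over 10 to 11 alternatives per comparison, 485 of 510 values for single enzymes kept their sign and side of the threshold. Of the others, 12 lost and 12 gained a call and 1 turned its sign, that of Dhcr7 between TgSREBP-1a and TgSREBP-2, at 0.14 without replicate 1 of TgSREBP-2. Enzymes called numbered 9 to 10 in TgSREBP-1a, 10 throughout in TgSREBP-2 and 7 to 9 in Scap-/-. Leaving out 1 array gave 110 to 234 genes higher and 21 to 48 lower in TgSREBP-2, 39 to 50 higher in Scap-/- and 93 to 165 higher in high-protein wild type, where all arrays gave 180, 32, 61 and 106. Quantile normalization gave 139 higher and 277 lower between the wild type pools, where 106 and 358 were called without it, and called 1 gene from acetyl-CoA to squalene higher in TgSREBP-1a than in TgSREBP-2, where 0 were. The causes were not tested.

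Same-numbered arrays share only a number in the labels. Their deviations from the group mean correlated at 0.46 to 0.61 within the high-protein set, 0.30 within the chow set and -0.48 to -0.12 between sets. With the replicate number as a block, 401 genes were higher and 217 lower (TgSREBP-1a), 196 and 33 (TgSREBP-2), 64 and 86 (Scap-/-); Sc5d gained its call in Scap-/- and between the wild type pools, and no other enzyme changed its call. A crossed block between the wild type pools, chosen after the data were seen, gave 111 higher and 367 lower.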

Other observations

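The pools can also be set beside the wild type pool of the other set, from which they differ in diet, age and injections as well. These are values without a test. In TgSREBP-2 both arrays were above both chow-fed wild type arrays for all 10 enzymes, as for 28.4% of all genes. In TgSREBP-1a this held for 7 of 10, as for 30.2% of all genes. Nsdhl and Hsd17b7 overlapped, and Msmo1 was below, by 0.73 log2 units in the mean, although it had risen 3.46-fold over its own wild type pool.

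Scap-/- arrays were below both wild type arrays on the high-protein diet for 8 of the 10, as for 31% of all genes, by 0.18 (Lss) to 0.75 (Dhcr7) in the means. For Msmo1 and Nsdhl these arrays overlapped, with differences of 0.17 and 0.04.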
